A study of Mus musculus with 4 samples.

Results

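NPMc+ and Flt3-ITD long-term hematopoietic stem cells were compared directly, as 1 single-cell library of each single mutant and without the Mx control library of the same series. Every barcode with at least 1000 UMIs (unique molecular identifiers, each standing for 1 captured transcript), at least 500 detected genes and at most 10.0% mitochondrial UMIs was taken. This gave 4768 of the 10608 such cells in the 4 libraries of the series, 2375 from the NPMc+ library and 2393 from the Flt3-ITD library. Both libraries came from C57BL/6 mice aged 8 to 11 weeks, with marrow of the limbs and sternum stained and sorted as long-term stem cells and processed at once with the 10x Single Cell 3' v2 kit. The genotypes were given as NPMc+ and Flt3-ITD. The labels name MxCRE as the genotype of the control alone, and give neither the Cre, the induction nor the number of animals behind either mutant library. With 1 library per genotype there was no test. Genotype and library cannot be told apart, and each interval below is a 95% interval for counting error only.

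NPMc+ is a mutant nucleophosmin, a nucleolar chaperone that the mutation moves into the cytoplasm, and blood cells that carry it are known for high Hox gene expression. Flt3-ITD is an internal tandem duplication in the receptor tyrosine kinase FLT3 that keeps the kinase active without its ligand and drives STAT5 and MAP kinase signalling. Both occur together in human acute myeloid leukemia. Long-term stem cells sit at the top of blood formation, divide rarely, and include cells primed towards the megakaryocyte lineage.

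The libraries held 25070675 UMIs in NPMc+ cells and 21982925 in Flt3-ITD cells, with medians of 9466 and 8661 UMIs and 3218 and 3023 genes per cell. Levels are CPM values, that is UMIs summed over the cells of a library and scaled to its total, and 1 UMI equals 0.0399 CPM in NPMc+ and 0.0455 CPM in Flt3-ITD. Shares are the percentage of cells with a UMI of a gene after each cell was thinned to 3000 UMIs, over 2250 NPMc+ and 2175 Flt3-ITD cells. This thinning left out 125 NPMc+ and 218 Flt3-ITD cells that were shallower. As a rough gauge of free RNA, shares were also read in erythroid cells with at least 10 Car1 UMIs, 28 in NPMc+ and 9 in Flt3-ITD. Their median depths were 12093 and 17954 UMIs. That such cells do not express the genes in question was assumed and not tested. Both libraries held male and female cells, so each pooled animals: 1155 male and 495 female cells in NPMc+, against 987 male and 773 female cells in Flt3-ITD. Ratios within each sex are therefore given for some genes, and a gene without them was not necessarily alike in both. The kept cells of the 2 libraries shared 12 barcode sequences.

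The stem cell label was read against its markers first. The 10 stem cell markers (among them Procr, Slamf1, Hlf, Mecom, Fgd5, Hoxb5 and Vwf) summed to 476 CPM in NPMc+ and 375 CPM in Flt3-ITD, and at least 3 of them were seen in 54.6% and 39.8% of cells. None was at 0 in either library. Shares of cells with 3 markers, here and below, were taken without thinning over all kept cells, and the NPMc+ library was the deeper. Kit and Ly6a, the 2 surface markers of the stem and progenitor gate, summed to 376 CPM in NPMc+ and 187 CPM in Flt3-ITD. The 8 markers of multipotent and lymphoid-primed progenitors, among them Cd34, Cd48 and Flt3, ran the other way with 496 CPM in NPMc+ and 800 CPM in Flt3-ITD. The 10 megakaryocyte markers summed to 1089 CPM in NPMc+ against 364 CPM in Flt3-ITD, with Gp6 at 0 in NPMc+, and at least 3 were seen in 52.2% and 26.5% of cells. The 11 erythroid markers summed to 281.5 CPM in NPMc+ and 145 CPM in Flt3-ITD. The 10 granulocyte markers summed to 603 CPM in NPMc+, with Ltf at 0, and 704 CPM in Flt3-ITD. The 11 B cell markers summed to 1289 CPM in NPMc+ and 77.3 CPM in Flt3-ITD, but Pax5 was at 0 in both libraries, Vpreb3 at 0 in NPMc+ and Ms4a1 at 0 in Flt3-ITD. In NPMc+ most of this sum came from the immunoglobulin genes Igkc and Ighm, whose UMIs lay mostly in few cells. Stem cell markers were thus present in both libraries, with unequal levels of markers of other lineages beside them.

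Neither mutant allele can be read from gene counts. Npm1 itself (chromosome 11, 33152287 to 33163206, minus strand, mm10) was at 1820 CPM in NPMc+ and 1724 CPM in Flt3-ITD, a ratio of 1.06. Flt3 (chromosome 5, 147330741 to 147400489, minus strand), the receptor of multipotent progenitors, was at 12.8 CPM in NPMc+ and 31.8 CPM in Flt3-ITD, 2.48-fold lower in NPMc+ (interval 2.17 to 2.84). Its log2 ratio was -1.79 in male and -0.42 in female cells. A group of 3 processed pseudogenes, singled out after their values were seen, set the libraries apart widely. Gm5611 (chromosome 9, 17030045 to 17030896) was at 859 CPM in NPMc+ and 1.001 CPM in Flt3-ITD. Gm14681 (chromosome X, 66778442 to 66778852) was at 399 CPM in NPMc+ and 27.8 CPM in Flt3-ITD, and Gm15484 (chromosome 5, 110118022 to 110118849) at 74.2 CPM in NPMc+ and 0.455 CPM in Flt3-ITD. Reads of a processed pseudogene can come from a near-identical parent transcript, so their origin is uncertain. Gm5611 was seen in 86.3% of NPMc+ cells and 0.184% of Flt3-ITD cells, which sets the libraries apart. Whether this goes with the genotype or with the library cannot be told here.

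Of 6297 genes with at least 20 CPM in 1 of the 2 libraries, 90 (1.43%) stood 2-fold or more above Flt3-ITD in NPMc+ and 109 (1.73%) 2-fold or more below it. At 1.5-fold, the bound used for gene lists below, 247 genes (3.92%) were higher and 286 (4.54%) lower in NPMc+. The median log2 ratio over all of them was 0.05 (quartiles -0.14 and 0.22), and 5764 genes (91.5%) lay within 1.5-fold. Genes on the higher side included Clca3a1, Sult1a1, Hspa1a, Meg3, Pf4, Ccnd1 and Cd74. Those on the lower side included Id3, Id1, Socs2, Rgcc, Dusp5 and Nr4a1. The direction was the same in male and female cells for 88 of the 90 and 106 of the 109, and 56 and 70 of them were past 2-fold in both sexes. Of 80 genes named by rule that were past 2-fold in all cells, 77 were still past it in male cells alone and 58 in female cells alone. All these genes were picked by their ratio in all cells, which include the male and female ones. Such agreement was therefore partly built in.

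**Figure D1:**
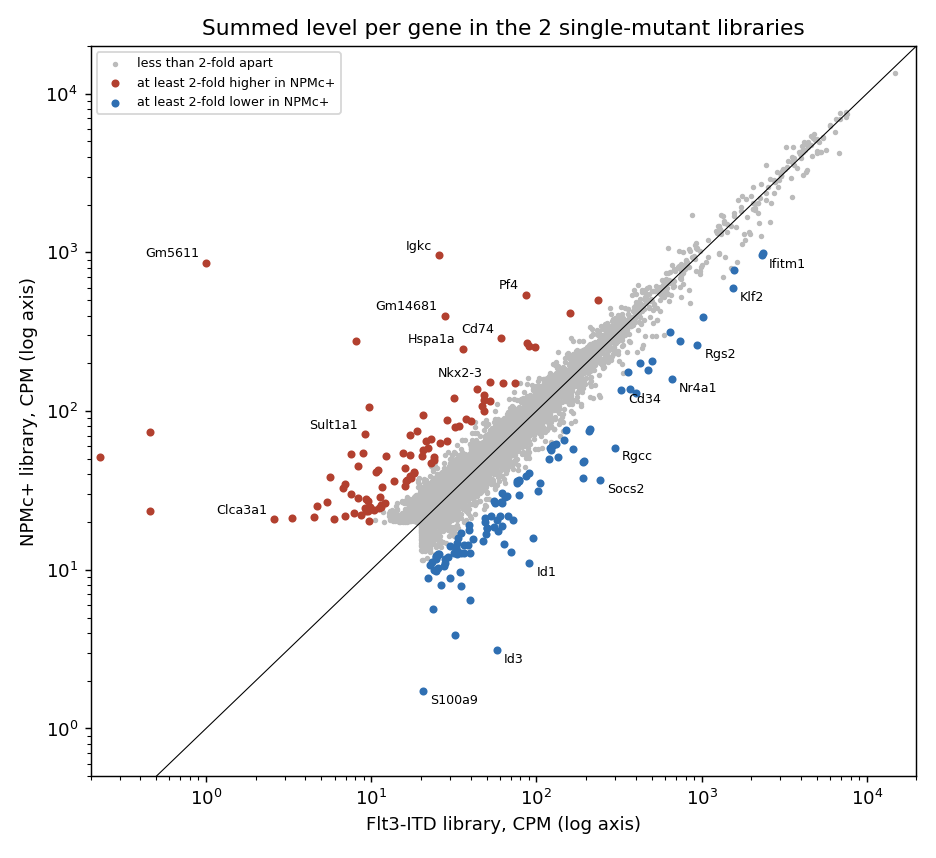
Each point is 1 of 6297 genes, with its CPM in the NPMc+ library on the vertical axis and in the Flt3-ITD library on the horizontal axis, both logarithmic. The 90 red genes stand 2-fold or more above equality and the 109 blue genes 2-fold or more below it, and the line marks equal levels.

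The promoters of 5 genes that stand for the main groups are shown as RefSeq gives them (GRCm38.p6), from 250 bases before to 50 after a gene start. Nr4a1, Dusp5 and Tnfaip3 stand for the immediate-early, kinase feedback and NF-kB genes that were lower in NPMc+, and Pf4 and H2-Aa for the platelet and MHC class II genes that were higher. Capitals mark matches on either strand to any of 5 motifs. TGACG is the core of the cyclic AMP response element. The CArG box is bound by serum response factor, and the NF-kB site by NF-kB dimers. AGATAA is a site of GATA factors, which act in megakaryocytes and red cells. CTGATTGG is the Y box of MHC class II promoters. No 2 of these motifs overlap in the windows shown.
Nr4a1, chr15:101266596-101266895, plus strand: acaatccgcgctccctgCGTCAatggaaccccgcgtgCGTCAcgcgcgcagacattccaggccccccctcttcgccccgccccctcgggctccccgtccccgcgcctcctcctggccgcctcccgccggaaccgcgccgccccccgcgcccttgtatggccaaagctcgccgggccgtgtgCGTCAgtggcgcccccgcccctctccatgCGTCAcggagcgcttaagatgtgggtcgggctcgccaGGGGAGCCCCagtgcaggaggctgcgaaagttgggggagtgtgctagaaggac
Dusp5, chr19:53528895-53529194, plus strand: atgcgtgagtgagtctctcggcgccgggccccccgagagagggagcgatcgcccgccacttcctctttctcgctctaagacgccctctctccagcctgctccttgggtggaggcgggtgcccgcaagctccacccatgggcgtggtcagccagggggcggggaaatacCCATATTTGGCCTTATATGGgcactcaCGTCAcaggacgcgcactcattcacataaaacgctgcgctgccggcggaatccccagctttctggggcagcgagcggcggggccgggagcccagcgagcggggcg
Tnfaip3, chr10:19015361-19015660, minus strand: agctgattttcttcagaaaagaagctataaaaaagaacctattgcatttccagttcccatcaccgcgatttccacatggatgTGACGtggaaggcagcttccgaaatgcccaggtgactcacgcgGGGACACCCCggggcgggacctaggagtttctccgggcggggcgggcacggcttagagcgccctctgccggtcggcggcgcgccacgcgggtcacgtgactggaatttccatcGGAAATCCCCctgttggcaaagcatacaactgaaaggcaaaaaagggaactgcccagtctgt
Pf4, chr5:90772185-90772484, plus strand: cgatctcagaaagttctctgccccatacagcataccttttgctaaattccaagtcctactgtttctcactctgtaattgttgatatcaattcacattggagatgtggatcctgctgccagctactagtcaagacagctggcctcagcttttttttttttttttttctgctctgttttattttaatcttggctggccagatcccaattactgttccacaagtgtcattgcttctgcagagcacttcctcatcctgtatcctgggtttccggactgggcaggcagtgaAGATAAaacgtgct
H2-Aa, chr17:34287774-34288073, minus strand: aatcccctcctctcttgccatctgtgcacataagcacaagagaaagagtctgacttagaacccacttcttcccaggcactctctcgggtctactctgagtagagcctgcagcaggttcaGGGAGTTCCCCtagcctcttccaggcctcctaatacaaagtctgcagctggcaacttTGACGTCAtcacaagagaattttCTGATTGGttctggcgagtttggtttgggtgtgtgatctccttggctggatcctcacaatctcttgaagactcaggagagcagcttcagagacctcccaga

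The Nr4a1 window holds 4 copies of TGACG, all on the other strand, and 1 NF-kB site. That of Dusp5 holds 2 adjoining CArG boxes and 1 TGACG match, and that of Tnfaip3 holds 2 NF-kB sites and 1 TGACG match. That of Pf4 holds 1 AGATAA close to its right end, and that of H2-Aa holds the Y box, a palindromic TGACGTCA counted once on each strand, and 1 stretch with 2 overlapping NF-kB matches. Over all 32851 windows in the table, 20.8% hold TGACG, 1.63% a CArG box, 4.51% an NF-kB site, 11.2% AGATAA and 4.10% the Y box. A window was found for 65 of the 90 genes higher and 75 of the 109 genes lower in NPMc+. By gene, TGACG was in 13 of the 65 higher genes, 30 of the 75 lower genes and 23.05% of all genes. All genes here means every gene with a window, whether or not it reached 20 CPM. The called genes all did, so the sets are unlike, and shares over measured genes alone were not taken. The NF-kB site was in 2 of the 65 higher and 13 of the 75 lower (3.08% and 17.3%, against 5.14% of all genes), and the Y box in 8 of the 65 and 2 of the 75 (12.3% and 2.67%, against 4.70%). AGATAA was in 12.3% of those higher, 12% of those lower and 12.7% of all, and the CArG box in 1.54%, 2.67% and 1.81%. A match describes these letters and is no evidence of binding.

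Stem cell identity genes were mostly higher in NPMc+. Among 40 that could be measured, 15 were 1.5-fold or more higher and 4 as much lower, and their median log2 ratio was 0.44 (0.05 over all genes). Their sums were closer, at 9563 CPM in NPMc+ and 8780 CPM in Flt3-ITD. Per cell at equal depth, the list gave a median of 28 UMIs in NPMc+ and 27 in Flt3-ITD. Ifitm1, an abundant member that was lower in NPMc+ (levels below), weighs on the sums and counts in the UMIs per cell. Clca3a1, a calcium-activated chloride channel regulator used as a marker of stem cells, was at 20.8 CPM in NPMc+ and 2.59 CPM in Flt3-ITD, 8.01-fold higher (interval 6.09 to 10.7). Sult1a1 (chromosome 7, 126672865 to 126676432, minus strand), a sulfotransferase of long-term stem cells, was at 71.5 CPM in NPMc+ and 9.14 CPM in Flt3-ITD, 7.82-fold higher (6.76 to 9.10), and was seen in 16.3% and 3.72% of cells. Both were higher in each sex, but by more in male than in female cells: the log2 ratio of Clca3a1 was 4.88 in male and 1.497 in female cells, and that of Sult1a1 3.67 and 1.92.

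Ly6a, which encodes the sorting antigen Sca-1 and is also interferon-inducible, was at 269 CPM in NPMc+ and 87.3 CPM in Flt3-ITD, 3.08-fold higher (2.93 to 3.24), and was seen in 46.6% and 21.9% of cells. Its log2 ratio was 1.91 in male and 0.94 in female cells. In erythroid cells its share was 10.7% and 11.1%, and that of Sult1a1 was 7.14% in NPMc+ and none of 9 cells in Flt3-ITD. Vwf, the von Willebrand factor of platelet-primed stem cells, was at 21.7 CPM in NPMc+ and 6.91 CPM in Flt3-ITD. Slamf1 (CD150), another sorting antigen, was at 33.6 CPM in NPMc+ and 16.0 CPM in Flt3-ITD, and Procr (EPCR, the protein C receptor) at 88.0 CPM and 49.4 CPM, 1.78-fold higher. Mycn, a MYC family factor of stem cells, was at 126 CPM in NPMc+ and 48.0 CPM in Flt3-ITD, and Mllt3, a reader of active chromatin that supports stem cells, at 116.5 CPM and 52.3 CPM. Other members were closer. Mecom, a zinc finger regulator of stem cells, was 1.43-fold higher, Kit was 1.08-fold higher, and Hlf, a factor that marks long-term stem cells, was at 115 CPM in NPMc+ and 128 CPM in Flt3-ITD. Ifitm1, Gimap6 and Krt18 were among the members lower in NPMc+. Ifitm1, an interferon-inducible membrane protein of stem cells, was at 958 CPM in NPMc+ and 2310.02 CPM in Flt3-ITD, 2.41-fold lower. So Procr, Slamf1 and Ly6a stood higher in NPMc+ while Hlf and Kit were nearly level.

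Genes of multipotent progenitors made the opposite picture in part. Cd34 (chromosome 1, 194938819 to 194961279, plus strand), a sialomucin low on mouse long-term stem cells, was at 135 CPM in NPMc+ and 327 CPM in Flt3-ITD, 2.42-fold lower (2.33 to 2.52), and was seen in 30.9% and 58.3% of cells. In erythroid cells it was seen in 3.57% and 44.4%. Cd48, a surface protein gained as stem cells turn into progenitors, was at 121 CPM in NPMc+ and 220.3 CPM in Flt3-ITD, 1.82-fold lower. For Cd48 the difference was in male cells (log2 ratio -1.18) and not in female cells (0.01), and for Cd34 it was larger in male (-1.61) than in female cells (-0.59). Of 32 measured genes of lymphoid and multipotent priming, 7 reached 1.5-fold on the higher side and 6 on the lower side (median log2 ratio -0.13). Bcl11a, a lymphoid transcription factor, was on the higher side with 162 CPM in NPMc+ and 104 CPM in Flt3-ITD. Gimap6, a GTPase of lymphoid cells, was on the lower side with 125.5 CPM and 239 CPM. Igkc, Ighm and Jchain, the genes of immunoglobulin chains and their joining chain, were at 963, 278 and 107 CPM in NPMc+ against 25.7, 8.10 and 9.73 CPM in Flt3-ITD. Most of this lay in few cells, as 82.6% of Igkc UMIs in NPMc+ lay in the 1% of cells that held most of them.

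**Figure D2:**
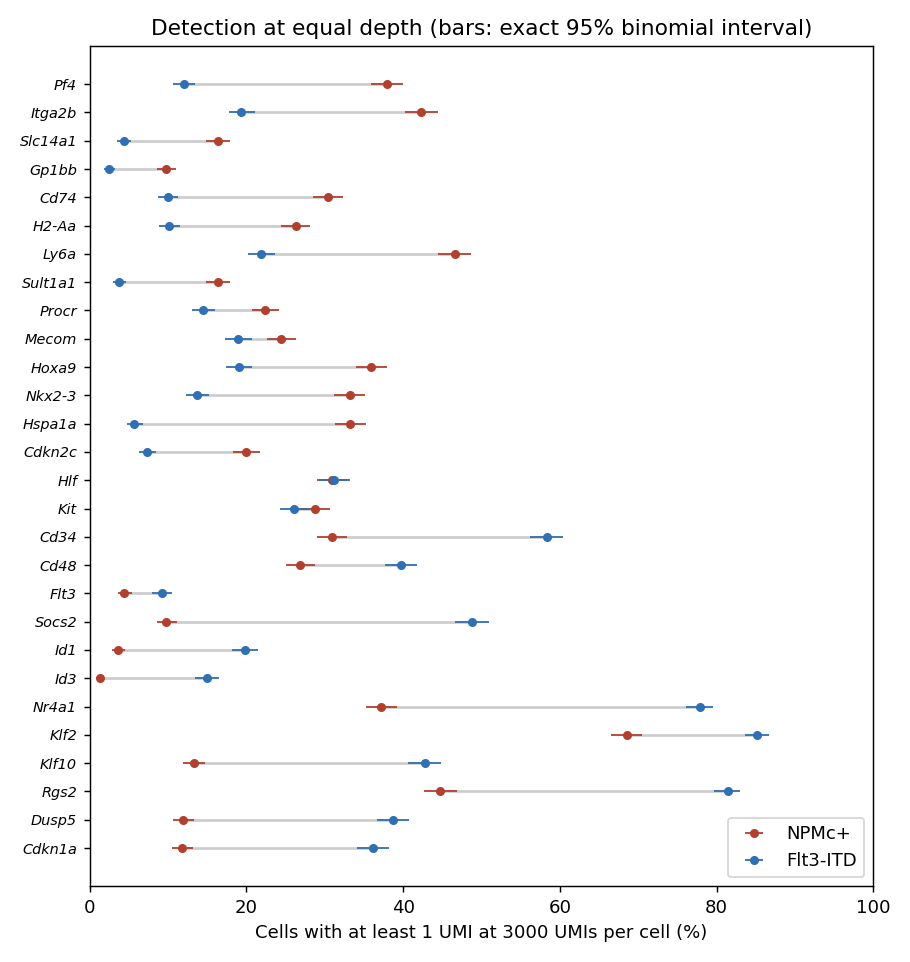
Points give the percentage of cells with at least 1 UMI of a gene after thinning to 3000 UMIs per cell, in red for 2250 NPMc+ cells and in blue for 2175 Flt3-ITD cells, with exact 95% binomial intervals. Pf4 was seen in 37.9% and 12% of cells and Socs2 in 9.78% and 48.8%, while the shares of Hlf overlap.

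Hox genes and their cofactors were higher in NPMc+ as a group. Among 12 measured, 8 were 1.5-fold or more higher and none was that much lower, with a median log2 ratio of 0.82. Hoxa9 (chromosome 6, 52223100 to 52231089, minus strand), a homeobox factor of self-renewing blood cells, was at 151 CPM in NPMc+ and 73.9 CPM in Flt3-ITD, 2.05-fold higher (1.93 to 2.17). It was seen in 35.96% and 19.03% of cells, and its log2 ratio was 1.03 in male and 0.98 in female cells. Its share in erythroid cells was 28.6% in NPMc+ and none of 9 in Flt3-ITD. Its neighbours in the cluster, Hoxa5, Hoxa7 and Hoxa10, were at 38.9, 83.8 and 65.6 CPM in NPMc+ against 17.1, 49.5 and 35.6 CPM in Flt3-ITD. Hoxb4 and Hoxb2 of the Hoxb cluster were at 40.8 and 22.9 CPM in NPMc+ against 18.1 and 7.87 CPM in Flt3-ITD. Nkx2-3, a homeobox gene outside the clusters, was at 153 CPM in NPMc+ and 52.0 CPM in Flt3-ITD, 2.93-fold higher. The sexes were less alike for other members than for Hoxa9: the log2 ratio was 1.83 in male and 0.54 in female cells for Hoxa5, and 1.93 and 0.32 for Hoxb2. The list median was 0.89 in male and 0.54 in female cells, and Hoxa5, Hoxa9, Hoxb2, Hoxb4 and Nkx2-3 were all under 2-fold in female cells. Among the cofactors, which bind DNA beside Hox proteins, Meis1 was at 245 CPM in NPMc+ and 198 CPM in Flt3-ITD, while Pbx4 was at 23.4 CPM and 30.0 CPM. Per cell at equal depth, the Hox list gave a median of 3 UMIs per NPMc+ cell and 2 per Flt3-ITD cell. At least 3 were held by 64.7% and 36.7% of cells.

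Megakaryocyte and platelet genes were mostly higher in NPMc+, with a median close to that of the Hox list. Among 33 measured, 20 were 1.5-fold or more higher in NPMc+, 15 of them past 2-fold, and none was 1.5-fold lower. Their median log2 ratio was 0.84. Pf4 (chromosome 5, 90772435 to 90773383, plus strand), platelet factor 4, was at 541 CPM in NPMc+ and 86.8 CPM in Flt3-ITD, 6.23-fold higher (5.94 to 6.54). Its log2 ratio was 2.77 in male and 2.14 in female cells. The share of cells with Pf4 was 37.9% in NPMc+ and 12% in Flt3-ITD. In the erythroid cells, the share with Pf4 was 21.4% in NPMc+, and none of the 9 Flt3-ITD ones held a UMI. Whether these cells express Pf4 themselves was not tested. Pf4 stood at 60.6 CPM in those NPMc+ cells against 552 CPM in the other NPMc+ cells, and at 20.5 CPM against 87.4 CPM in Flt3-ITD.

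The members of the platelet von Willebrand receptor were higher too: Gp1bb was at 52.0 CPM in NPMc+ and 12.3 CPM in Flt3-ITD, Gp5 at 64.7 CPM and 21.6 CPM, and Gp9 at 101 CPM and 56.3 CPM. Itga2b, the integrin subunit CD41, was at 257 CPM in NPMc+ and 90.6 CPM in Flt3-ITD, 2.84-fold higher, and Selp, the adhesion receptor P-selectin, at 56.6 CPM and 20.6 CPM. The thrombin and nucleotide receptors F2rl2 and P2ry1 were at 26.7 and 21.5 CPM in NPMc+ against 5.41 and 4.50 CPM in Flt3-ITD. Slc14a1, a urea transporter, was at 70.4 CPM in NPMc+ and 17.2 CPM in Flt3-ITD, and Treml1, a platelet granule receptor, at 29.8 CPM and 7.51 CPM. Gata1, the transcription factor of the megakaryocyte and erythroid lineages, was at 55.5 CPM in NPMc+ and 31.9 CPM in Flt3-ITD. Fli1, another lineage factor, was at 136 CPM in NPMc+ and 100.4 CPM in Flt3-ITD. Pf4 and Gp1bb thus lay far apart between the libraries, and Fli1 less so.

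Cells with at least 3 different megakaryocyte markers were 1240 in NPMc+ and 635 in Flt3-ITD. When these were left out, a choice made after the data were seen and one that removes cells by the genes counted here, the median of the megakaryocyte list was 0.58. Pf4 was then still 3.84-fold higher in NPMc+ while Itga2b was 1.98-fold higher. Without these cells the median log2 ratio of the Hox list was 0.95 and that of the stem cell list 0.46, and Sult1a1 was 12.8-fold higher.

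Of 23 measured erythroid genes, 9 were at least 1.5-fold higher in NPMc+ and none was that much lower, with a median log2 ratio of 0.55. Klf1, the erythroid master regulator, was at 24.7 CPM in NPMc+ and 11.4 CPM in Flt3-ITD, and Icam4, a red cell adhesion protein, at 79.7 CPM and 32.0 CPM. Car1, carbonic anhydrase 1, was at 80.6 CPM in NPMc+ and 34.0 CPM in Flt3-ITD, but its log2 ratio was 1.04 in male and -0.45 in female cells. Cells with at least 3 erythroid markers made up 10.9% of NPMc+ and 2.21% of Flt3-ITD cells. Apoe, the apolipoprotein that is also a stem cell gene, was at 1729 CPM in NPMc+ and 877 CPM in Flt3-ITD.

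**Figure D3:**
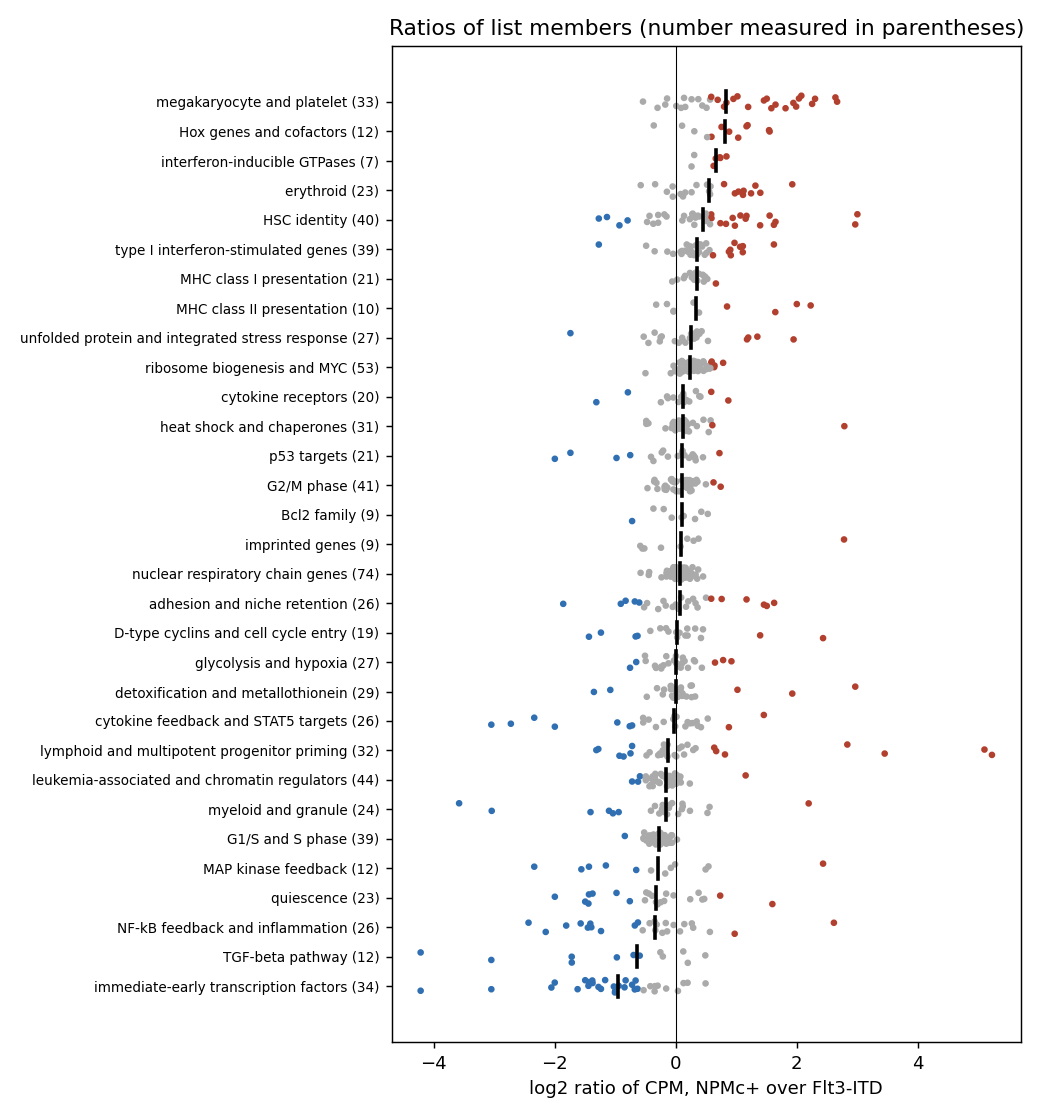
Each point is a measured member of a gene list at its log2 ratio of CPM, NPMc+ over Flt3-ITD, red from 1.5-fold higher and blue from 1.5-fold lower in NPMc+, and the black bar is the median of the list. The megakaryocyte list has the highest median (0.84), next to the Hox list (0.82), and the immediate-early list the lowest (-0.96).

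Immediate-early transcription factors, which growth signals switch on within minutes and which also come up while tissue is taken apart, were lower in NPMc+. Among 34 measured, 24 were 1.5-fold or more lower, 15 of them past 2-fold, and none was 1.5-fold higher. Their median log2 ratio was -0.96, with -1.01 in male and -0.72 in female cells. Nr4a1 (chromosome 15, 101254269 to 101274795, plus strand), an orphan nuclear receptor, was at 159 CPM in NPMc+ and 659 CPM in Flt3-ITD, 4.15-fold lower (4.01 to 4.30), and was seen in 37.2% and 77.9% of cells. Klf2 and Klf4, zinc finger factors linked to quiescence, were at 594 and 77.6 CPM in NPMc+ against 1539 and 211 CPM in Flt3-ITD. Egr1, a zinc finger factor downstream of MAP kinase, was at 275 CPM in NPMc+ and 743 CPM in Flt3-ITD, and Ier2 at 995 CPM and 2340.1 CPM. Of the AP-1 genes, Fosb was at 393 CPM in NPMc+ and 1022 CPM in Flt3-ITD, while Jun, at 2238 CPM and 3539.5 CPM, and Fos, at 3087 CPM and 4125 CPM, were closer. Dusp1, a phosphatase induced with them, was on the other side at 1022 CPM in NPMc+ and 725 CPM in Flt3-ITD, and Myc was at 127 CPM and 111 CPM. Nr4a1 and Klf10 were thus each near 4-fold lower while Fos, the most abundant of them, was 1.34-fold lower.

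Thinned to 3000 UMIs, cells held a median of 48 immediate-early UMIs in NPMc+ and 75 in Flt3-ITD. The 10th and 90th percentiles were 23 and 80 UMIs in NPMc+ and 39 and 127 UMIs in Flt3-ITD. A share of 13.1% of NPMc+ cells were above the Flt3-ITD median, and 82.2% of Flt3-ITD cells were above the NPMc+ median, so that the difference ran through most cells. Across the cells of NPMc+ the immediate-early sum went with the stem cell sum (Spearman's rho 0.39 over 2250 cells), but hardly in Flt3-ITD (0.05 over 2175 cells). These correlations are descriptions over cells that share a library.

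**Figure D4:**
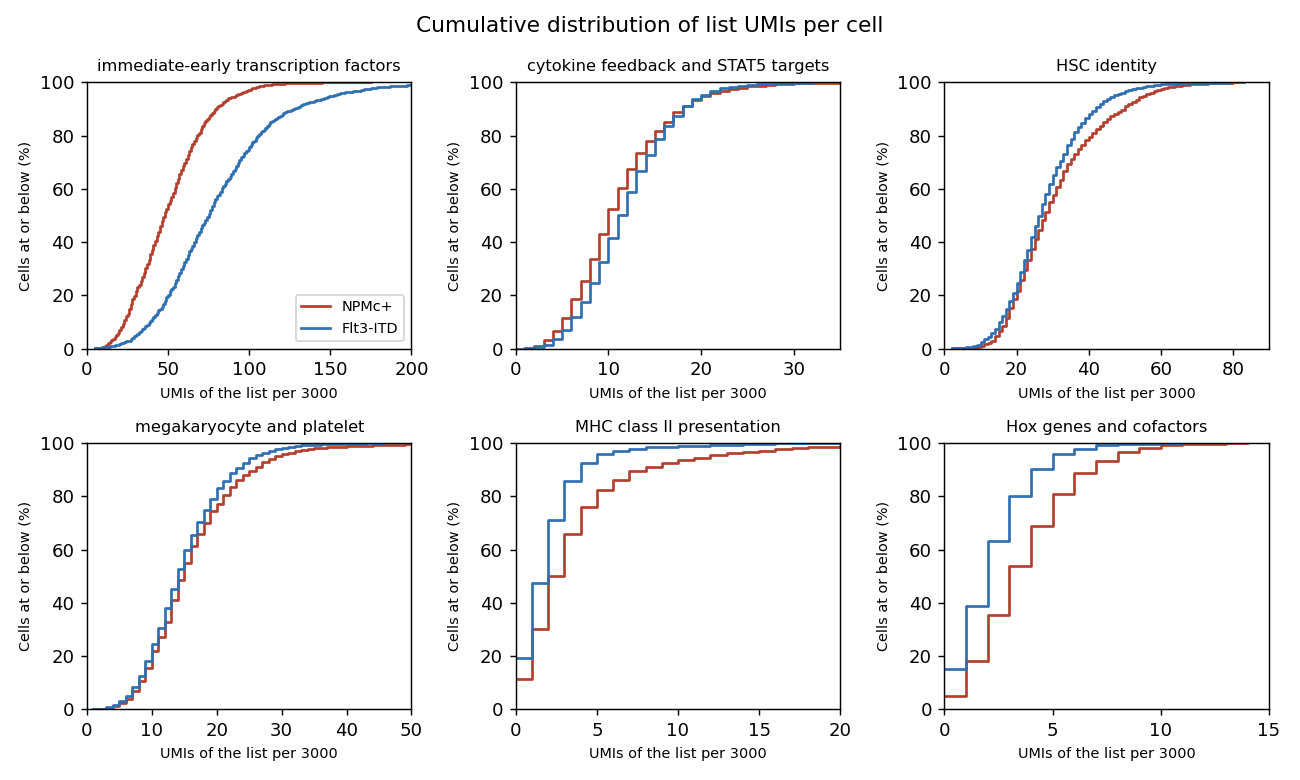
Each panel gives the percentage of cells (vertical axis) with at most the number of UMIs of a gene list on the horizontal axis, per 3000 UMIs, in red for NPMc+ and blue for Flt3-ITD. The immediate-early curves meet at the lowest counts and stand apart over most of their range (medians 48 and 75 UMIs), and the megakaryocyte curves nearly coincide at the median (15 and 14 UMIs).

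The inhibitors of differentiation Id3 and Id1 were far lower in NPMc+. Id3 (chromosome 4, 136143497 to 136145755, plus strand), a dimerization inhibitor of helix-loop-helix factors that BMP and TGF-beta signals regulate, was at 3.11 CPM in NPMc+ and 57.7 CPM in Flt3-ITD, 18.5-fold lower (14.7 to 23.6). Id1 (chromosome 2, 152736251 to 152737410, plus strand), of the same family, was at 11.0 CPM in NPMc+ and 90.5 CPM in Flt3-ITD, 8.25-fold lower (7.27 to 9.40). The log2 ratio of Id3 was -4.24 in male and -4.125 in female cells, and that of Id1 -2.88 and -3.22. They were seen in 1.24% and 3.60% of NPMc+ cells against 14.9% and 19.8% of Flt3-ITD cells. Of 12 measured TGF-beta pathway genes, 7 were at least 1.5-fold lower in NPMc+ and none was 1.5-fold higher, with a median log2 ratio of -0.64. Id1 and Id3 are among these 7 and also among the lower immediate-early genes. Among its feedback inhibitors, Skil was at 31.2 CPM in NPMc+ and 102 CPM in Flt3-ITD, Bambi, a decoy receptor, at 18.9 CPM and 62.3 CPM, and Smad7 at 86.9 CPM and 170.4 CPM. The ligand gene Tgfb1 was at 536 CPM in NPMc+ and 381.5 CPM in Flt3-ITD, and the receptor-activated Smad1 and Smad2 were at 32.8 and 31.4 CPM against 28.5 and 36.3 CPM. The feedback genes were thus lower in NPMc+ while the ligand was not.

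Feedback genes of cytokine and kinase signalling differed gene by gene. Socs2 (chromosome 10, 95385362 to 95417180, minus strand), a STAT5-induced inhibitor of cytokine receptors, was at 36.9 CPM in NPMc+ and 243 CPM in Flt3-ITD, 6.598-fold lower (6.15 to 7.08), and was seen in 9.78% and 48.8% of cells. Its log2 ratio was -2.80 in male and -2.40 in female cells. Cish, also a STAT5 target, was closer at 28.9 CPM in NPMc+ and 41.9 CPM in Flt3-ITD, and Socs3 was at 85.6 CPM and 145 CPM. Pim1, a kinase induced by STAT5, was at 491 CPM in NPMc+ and 504 CPM in Flt3-ITD. Of the 26 measured members, 2 reached 1.5-fold on the higher side and 7 on the lower side (median log2 ratio -0.03). Among these 7, Id1 and Mcl1 are also on the immediate-early list and Dusp5 is also a MAP kinase feedback gene. Dusp5, a nuclear phosphatase of ERK, was at 37.9 CPM in NPMc+ and 191.3 CPM in Flt3-ITD, 5.05-fold lower (4.70 to 5.42), and Spry1, a kinase pathway inhibitor, at 29.0 CPM and 64.4 CPM. Dusp6, the cytoplasmic ERK phosphatase, was at 42.6 CPM in NPMc+ and 66.8 CPM in Flt3-ITD. Of 12 measured genes of MAP kinase feedback, 5 were at least 1.5-fold lower and 1, Ccnd1, was higher. Egr1, also on the immediate-early list, is among these 5. Ccnd1 (cyclin D1; chromosome 7, 144929931 to 144939925, minus strand) was at 44.8 CPM in NPMc+ and 8.28 CPM in Flt3-ITD, 5.41-fold higher (4.62 to 6.36), with log2 ratios of 3.30 in male and 1.55 in female cells. Socs2, Dusp5 and Ccnd1 thus stood far apart in these libraries and Pim1 did not.

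Of 26 measured genes of NF-kB feedback and inflammation, 10 were at least 1.5-fold lower and 2 higher in NPMc+, with a median log2 ratio of -0.34. Among the inhibitors that NF-kB itself induces, Nfkbia was at 181 CPM in NPMc+ and 475 CPM in Flt3-ITD, Tnfaip3 (A20) at 35.4 CPM and 105 CPM, and Nfkbid at 14.5 CPM and 64.1 CPM. Cxcl2, a neutrophil chemokine, was at 12.96 CPM in NPMc+ and 69.9 CPM in Flt3-ITD, 5.39-fold lower, with log2 ratios of -2.74 in male and -1.11 in female cells. Tnip3, an A20-binding protein, ran against the list with 54.3 CPM in NPMc+ and 8.87 CPM in Flt3-ITD, 6.12-fold higher (5.27 to 7.15). The subunits Nfkb1 and Rela were level, at 96.1 and 65.6 CPM in NPMc+ against 98.4 and 62.4 CPM in Flt3-ITD. In female cells the list median was -0.11, against -0.41 in male cells.

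The cell cycle genes were compared because stem cell rest is the question in the study's title. Cdkn1a (p21), an inhibitor of cyclin-dependent kinases, was at 48.0 CPM in NPMc+ and 191.5 CPM in Flt3-ITD, 3.99-fold lower (3.74 to 4.25), and was seen in 11.8% and 36.1% of cells. Cdkn2c (p18), an inhibitor of CDK4 and CDK6, was the opposite at 87.6 CPM in NPMc+ and 28.9 CPM in Flt3-ITD, 3.03-fold higher. Cdkn1c (p57), the inhibitor most tied to stem cell rest, was at 34.8 CPM in NPMc+ and 26.7 CPM in Flt3-ITD, with log2 ratios of 0.85 in male and -0.18 in female cells. Of 23 measured quiescence genes, 2 were at least 1.5-fold higher and 7 lower in NPMc+, with a median log2 ratio of -0.32. All but Cdkn1a and Tob1 of those 7 are also on the immediate-early list.

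Of 39 measured genes of G1/S and S phase, 1 (Hells, a chromatin helicase needed for DNA methylation) was at least 1.5-fold lower and none was 1.5-fold higher, but 38 had log2 ratios below 0 and the median was -0.28. The replication genes Mcm3 and Pcna were at 124 and 137 CPM in NPMc+ against 177 and 186 CPM in Flt3-ITD. G2/M genes did not share this: 2 of 41 were at least 1.5-fold higher, none was that much lower, and the median was 0.11. Mki67, a marker of cycling cells, was at 31.6 CPM in NPMc+ and 32.0 CPM in Flt3-ITD, a ratio of 0.988, and Cdk6, which sets the pace of stem cell exit from rest, was 1.14-fold higher in NPMc+, with log2 ratios of 0.02 in male and 0.67 in female cells. The G1/S and G2/M medians depended on which cells were counted. Without the cells that held 3 megakaryocyte markers, the median was -0.96 for G1/S and S phase and -0.46 for G2/M genes, and without cells of other lineages it was -0.49 and -0.25.

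MHC class II genes, which present antigen and are expressed by antigen-presenting cells and some stem cells, were split in NPMc+. The invariant chain gene Cd74 (chromosome 18, 60803848 to 60812652, plus strand) was at 287 CPM in NPMc+ and 61.2 CPM in Flt3-ITD, 4.69-fold higher (4.43 to 4.98), and was seen in 30.4% and 9.93% of cells. In the erythroid cells named above, Cd74 was seen in 17.9% of the NPMc+ ones and in none of the 9 Flt3-ITD ones. The class II chains H2-Aa, H2-Eb1 and H2-Ab1 were at 137.5, 75.4 and 161 CPM in NPMc+ against 43.9, 18.8 and 89.4 CPM in Flt3-ITD. The other 6 of 10 measured members were within 1.5-fold, such as the peptide loader H2-DMa at 269 CPM in NPMc+ and 219 CPM in Flt3-ITD. The log2 ratio of Cd74 was 2.53 in male and 1.30 in female cells, that of H2-Aa 2.05 and 0.52, and that of H2-Ab1 1.08 and 0.10. At least 3 class II UMIs were held by 49.8% of NPMc+ and 28.9% of Flt3-ITD cells at equal depth. Monocyte, macrophage and dendritic markers summed to 411 CPM in NPMc+ and 373 CPM in Flt3-ITD. Without thinning, 3 of them were held together by 0.505% and 0.0418% of cells. Cells with 3 markers of any other lineage but megakaryocytes, B cells included, were also left out. The class II list median was then 0.40, against 0.34 in all cells. Cd74 was 5.17-fold, H2-Aa 3.42-fold, H2-Eb1 4.22-fold and H2-Ab1 1.97-fold higher in NPMc+. The part of any single cell type in the class II result was not tested.

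MHC class I genes differed by less but in 1 direction. Of 21 measured members, 20 had log2 ratios above 0, with a median of 0.35, and 1 (H2-Q7) was at least 1.5-fold higher. B2m, the light chain, was at 4982 CPM in NPMc+ and 4141 CPM in Flt3-ITD, and the heavy chain H2-K1 at 1694 CPM and 1349 CPM. Of 7 measured interferon-inducible GTPases, which guard cells against intracellular microbes, 5 were at least 1.5-fold higher in NPMc+. Ifi47 led them at 131 CPM in NPMc+ and 73.2 CPM in Flt3-ITD. Their median was 0.66 in all cells, 0.97 in male cells and 0.06 in female cells. Of 39 measured type I interferon-stimulated genes, 9 were at least 1.5-fold higher and 1 lower, with a median of 0.36. Their sum ran the other way, at 5872 CPM in NPMc+ and 6209 CPM in Flt3-ITD. This reversal rests on Ifitm1, whose levels, given above, lay further apart between the libraries than these sums. Per cell at equal depth, these genes, Ifitm1 among them, gave a median of 16 UMIs in NPMc+ and 18 in Flt3-ITD. Irf7, a transcription factor that relays interferon signals, was at 20.6 CPM in NPMc+ and 10.5 CPM in Flt3-ITD, and Isg15, a ubiquitin-like modifier, at 24.3 CPM and 16.5 CPM. Ifitm1 was the lower member, while Ifitm3 was at 999 CPM in NPMc+ and 774 CPM in Flt3-ITD.

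Several other genes stood out by the size of their ratio. Hspa1a (chromosome 17, 34969190 to 34972156, minus strand), an inducible HSP70 chaperone, was at 247 CPM in NPMc+ and 35.8 CPM in Flt3-ITD, 6.90-fold higher (6.41 to 7.45). It was nearly alone among 31 measured heat shock genes, of which 2 reached 1.5-fold upwards and none downwards (median log2 ratio 0.12). Meg3, an imprinted noncoding RNA of stem cells, was at 38.5 CPM in NPMc+ and 5.60 CPM in Flt3-ITD, with log2 ratios of 3.52 in male and 0.56 in female cells. Mt1, a metal-binding metallothionein, was at 120.2 CPM in NPMc+ and 31.6 CPM in Flt3-ITD. Ms4a3, a membrane protein of granulocyte and monocyte progenitors, was at 94.3 CPM in NPMc+ and 20.6 CPM in Flt3-ITD, while Mpo, the granule peroxidase, was at 29.8 CPM and 79.0 CPM. Rgs2 (chromosome 1, 143999338 to 144004161, minus strand), which shuts off G protein signals, was at 259 CPM in NPMc+ and 939 CPM in Flt3-ITD, 3.62-fold lower (3.52 to 3.73), with log2 ratios of -2.15 in male and -0.997 in female cells. Rgcc, a cell cycle regulator first tied to complement, was at 58.8 CPM in NPMc+ and 299 CPM in Flt3-ITD, 5.08-fold lower. S100a8 and S100a9, the calprotectin subunits, were at 3.91 and 1.72 CPM in NPMc+ against 32.1 and 20.5 CPM in Flt3-ITD. A single Flt3-ITD cell held 611 of the S100a8 UMIs and 383 of the S100a9 UMIs, and without the highest cell of each library the genes were 1.59-fold and 1.86-fold lower.

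Of the housekeeping lists, the nuclear respiratory chain and ribosomal protein genes stayed near the middle. None of 74 nuclear respiratory chain genes was 1.5-fold apart, and 1 of 83 ribosomal protein genes was 1.5-fold higher and 1 lower, with medians of 0.07 and 0.06. Ribosome biogenesis and MYC target genes had a median of 0.24, with 49 of 53 above 0 and 5 at least 1.5-fold higher, among them Ldha, lactate dehydrogenase, at 1073 CPM in NPMc+ and 623 CPM in Flt3-ITD. Of 11 measured genes of the mitochondrial genome, 10 had log2 ratios below 0 and the median was -0.35, while mitochondrial UMIs made up 0.584% of all in NPMc+ and 0.758% in Flt3-ITD. Among 20 measured cytokine receptors, 2 were at least 1.5-fold higher and 2 lower. The lower were Flt3 and Csf2rb, the shared beta chain of several cytokine receptors, at 14.8 CPM in NPMc+ and 25.6 CPM in Flt3-ITD. Among 44 leukemia-associated and chromatin regulators, Mllt3 was at least 1.5-fold higher and Crebbp, Dnmt3b and Stag2 were lower, with a median of -0.16.

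**Figure D5:**
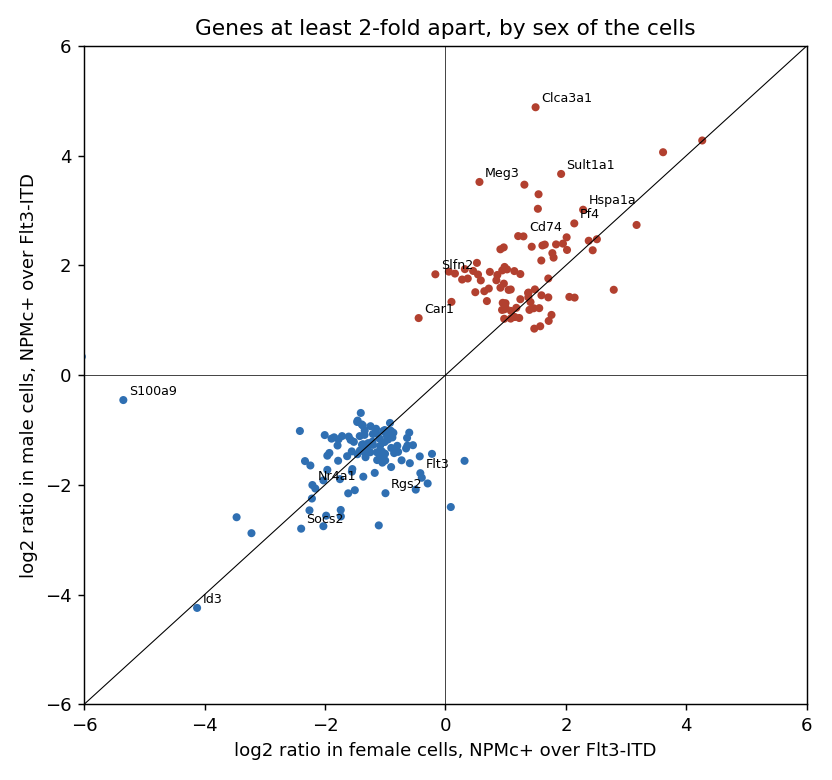
Points are 194 of the genes at least 2-fold apart, with the log2 ratio of CPM, NPMc+ over Flt3-ITD, in male cells on the vertical and in female cells on the horizontal axis, red where higher and blue where lower in NPMc+; another 5 lie outside the axes. Most points lie in the quadrants of equal sign, as 88 of the 90 higher and 106 of the 109 lower genes did, which is partly built in because the genes were picked in all cells.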

How the data were processed

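The deposited files were UMI count tables, genes by barcodes, 1 per library, that the authors made. The submitters' processing notes name STARsolo, STAR 2.7.0c and the mm10 build. How multi-mapped reads were counted is not given in the sources used here. Counts were not normalized when deposited. Cells were filtered as stated, with no doublet removal. UMIs were summed per library and scaled to CPM. Ratio intervals are exact Clopper-Pearson, CPM intervals exact Poisson. Genes needed 20 CPM in 1 library.

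Of 24377 symbols, 23297 (95.6%) matched GENCODE M21, which gave coordinates. The 31 written lists (1315 names, 1180 distinct, 1155 matched) and 2 lists by name pattern, like the cells compared, were chosen with earlier results of these data known. Named genes were the 20 highest and 20 lowest ratios with at least 100 UMIs (clone names, immunoglobulin segments, mitochondrial and sex-specific genes left out, which took away 22 genes past 2-fold), the 4 most distant members of each list, and a fixed set. Further list members, the 3 pseudogenes, the 5 promoters and the erythroid cells (10 Car1 UMIs) were chosen after values were seen. Some list members are not reported here.

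The ratio code was tested on simulated data. Tools were Python 3.11.15, numpy 2.4.6, scipy 1.17.1, pandas 2.3.3, matplotlib 3.10.9 and edgeR 4.0.16 in R 4.3.3 (TMM factors only). Cells were called male from UMIs of 4 Y-linked genes (Uty, Kdm5d, Eif2s3y, Ddx3y) without Xist, and female from Xist without those 4. Another 283 NPMc+ and 227 Flt3-ITD cells had both kinds and 442 and 406 had neither.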

Additional observations from a re-analysis of the deposited data

Results flagged for a closer look

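Iigp1, an interferon-inducible GTPase, had a log2 ratio of NPMc+ over Flt3-ITD of 1.27 in male cells and -0.69 in female cells, so the sexes pointed in opposite directions. The difference between the sexes was not tested, since each library gives 1 value per sex.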

How the results depend on the processing

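No paired analysis was possible because each genotype had 1 library and the labels gave no replicate numbers. The counts of genes at least 2-fold higher and lower in NPMc+ moved with the floor, by construction: 139 and 182 at 10 CPM, 47 and 64 at 50 CPM, and 1248 and 1649 with no floor, where many genes rest on few UMIs. Under the other alternatives they ran between 79 and 116 higher and between 98 and 144 lower. The ratio of Car1 changed sign in female cells (log2 -0.45), as did Slfn2 (-0.17), that of S100a8 in male cells (0.34) and without cells of other lineages (0.14), and that of Jchain without those cells (-0.055). The cause was not tested. Of 80 named genes past 2-fold, 58 were still past it in female cells alone and 70 without the cells that held 3 megakaryocyte markers, an alternative chosen after seeing the data. Among the 90 and 109 genes, 60 and 70 stayed past 2-fold without those cells.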

Other observations

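At full depth, cells with at least 3 B cell markers made up 12.8% of NPMc+ and 0.460% of Flt3-ITD cells. In NPMc+, Igkc was seen at equal depth in 41.6% of all cells and in 35.7% of the 28 erythroid cells, and the highest cell held 11522 UMIs of it. Of Ighm UMIs in NPMc+, 5988 came from 1 cell. Granulocyte markers went the other way, with 3 of them in 3.58% of NPMc+ and 8.65% of Flt3-ITD cells. The unfolded protein and integrated stress response list had 4 of 27 measured members at least 1.5-fold higher in NPMc+: Asns, asparagine synthetase, at 25.1 CPM in NPMc+ and 9.83 CPM in Flt3-ITD, Vldlr, a lipoprotein receptor, at 42.3 CPM and 11.0 CPM, and Sdf2l1, a chaperone cofactor of the endoplasmic reticulum, at 108 CPM and 46.9 CPM, with Nupr1 the other.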
